A study of Mus musculus with 16 samples.

Results

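Retinal microglia were compared with bone marrow monocytes on 8 of the 16 libraries of a bulk RNA sequencing series on mouse mononuclear phagocytes, 4 libraries of each population, chosen by the source given in the labels and by the matching column headers. All mice were labelled C57BL/6, adult and aged 8 to 10 weeks, with no engineered allele and no treatment named for these animals. The extract protocol text, however, describes brainstem of another mouse line, against the source of these samples. Retinal microglia were sorted as CD45+CD11b+ cells from retinae dissociated mechanically in the cold, each library from 10 pooled mice. Bone marrow monocytes were sorted as CD45+CD11b+CD115+Ly6C+ cells from whole marrow. The labels' descriptions of the 4 marrow libraries name retinal microglia, against their titles, source and population, so the pool size of the marrow libraries is unknown, and the handling text ends before any marrow part. The other 8 libraries, cornea macrophages and brain microglia, also entered the fit. They shared in the choice of genes tested, the scaling of the libraries and the estimate of the spread. With all libraries 15754 genes were tested, and 14350 with the 8 compared libraries only. Where nothing says that libraries of a population came from separate animals, p-values measure the spread between these libraries, which may be partly technical. In 2 retinal libraries, 1 and 3, the title lacks a letter b that all other titles of both populations carry, and they share their title numbers with retinal libraries 2 and 4.

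Microglia are the resident macrophages of the retina and brain. They derive from yolk sac progenitors, renew themselves in place, depend on signals through CSF1R and TGF-beta, and are known for purinergic sensing of injury and for clearing dying cells and synapses. Ly6C+ monocytes arise in the marrow from dividing myeloid progenitors, leave it through CCR2 and enter inflamed tissue, where they can become macrophages. Both cell types belong to the myeloid lineage and share PU.1, the transcription factor encoded by Spi1.

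Total counts were 10.71, 17.23, 16.01 and 19.94 mega-counts in retinal libraries 1 to 4 and 20.71, 8.91, 9.66 and 13.1 mega-counts in marrow libraries 1 to 4. Levels are CPM, the count per mega-count of a library after TMM scaling (a factor that offsets a few dominant genes), given for libraries 1 to 4 in that order or as mean ± SD over 4 libraries. The mean Spearman correlation across genes was 0.963 among retinal libraries, 0.982 among marrow libraries and 0.756 between the populations, as a description of likeness, since genes are not replicates. All 4 retinal libraries and marrow library 1 were sequenced on lane 2 and marrow libraries 2 to 4 on lane 3, per the column headers. A gene is called here where edgeR's quasi-likelihood test, adjusted over every gene tested by the method of Benjamini and Hochberg, gave a p under 0.05, and "higher" or "lower" refers to retinal microglia. The standard error (SE) was taken from the size of the log2 fold change and the F statistic of that test.

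The genes of the gates' antigens were measured in the populations sorted on them, and only Ly6c2 of the marrow gate was near 0 in retina. Ly6c2, which encodes the Ly6C antigen of the marrow gate, had 0.316, 0.0488, 0 and 0.564 CPM in retinal microglia, against 2663, 2335, 2445 and 2412 CPM in monocytes. The libraries did not overlap, and its near-identical neighbour Ly6c1, with which reads may be shared, had 0.0197 ± 0.0394 CPM in retina, 18.3 ± 5.9 CPM in marrow. Csf1r, which encodes CD115, was in both populations and higher in retinal microglia (8247 ± 971 CPM in retina, 1540.2 ± 91.3 CPM in marrow; log2 fold change 2.42, SE 0.12; edgeR adjusted p = 4.76e-11). Ptprc, which encodes CD45, was lower (559.7 ± 85.5 CPM in retina, 1492 ± 232 CPM in marrow; log2 fold change -1.41). Itgam, which encodes CD11b, had 1215, 888, 587 and 789 CPM in retinal microglia, against 879, 825, 914 and 832 CPM in monocytes, with overlapping libraries and a log2 fold change of 0.01 (SE 0.18; edgeR adjusted p = 0.963). Adgre1, the F4/80 antigen, was also not called (506 ± 86.5 CPM in retina, 432 ± 124 CPM in marrow). Because Ly6c2, Csf1r, Ptprc and Itgam encode the antigens of the gates, their differences describe the sorted cells and add nothing beyond them.

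**Figure D1:**
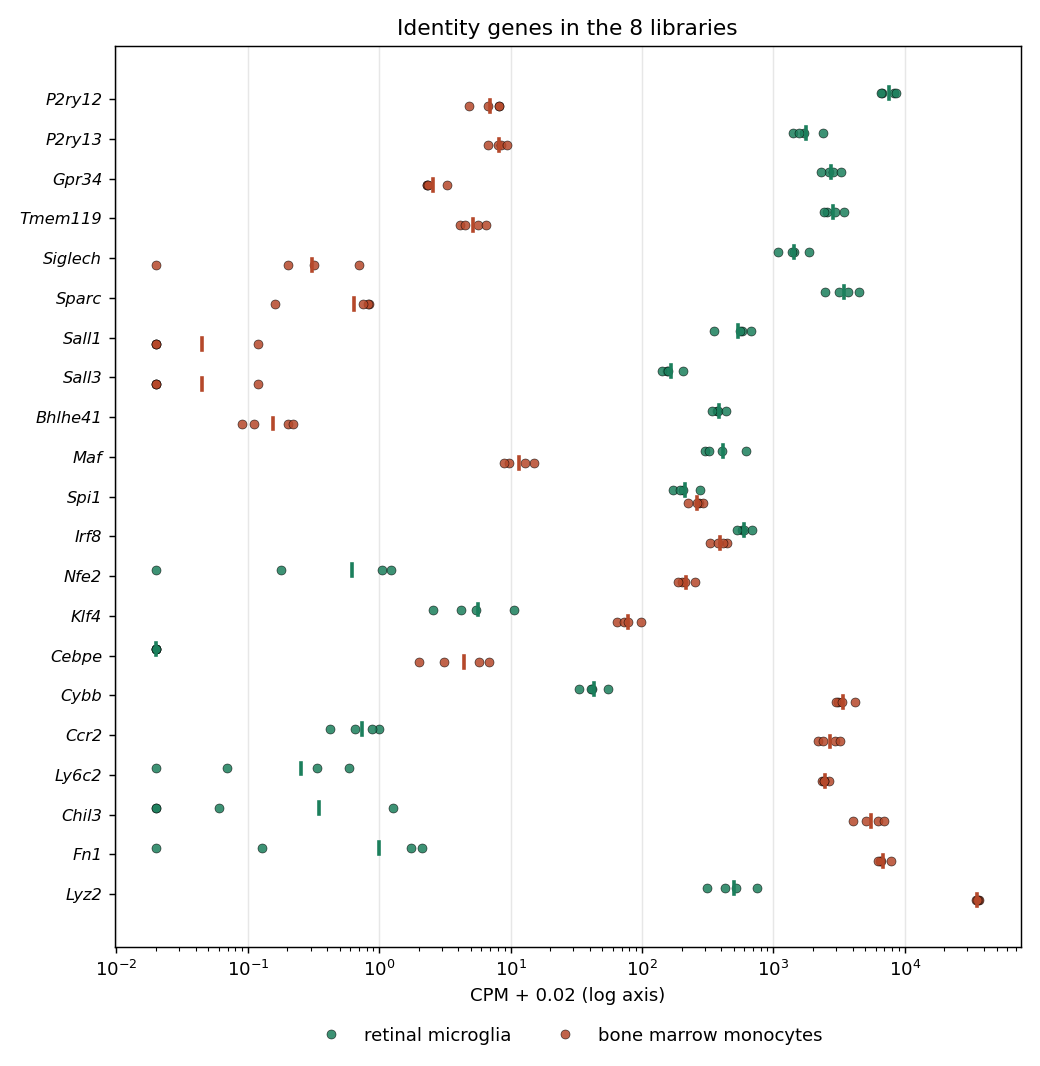
Level of 21 genes in each of the 8 libraries, as CPM plus 0.02 on a log axis; each dot is a library (retinal microglia above bone marrow monocytes in each row) and each bar a mean of 4 libraries. P2ry12 lies at 6606 to 8502 CPM in retinal microglia against 4.83 to 8.17 CPM in monocytes, Lyz2 at 313 to 753 against 34943 to 36929.9 CPM, and Spi1 overlaps.

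Of 15754 genes tested, 9338 were called (59.3%), 5069 higher (32.2%) and 4269 lower (27.1%) in retinal microglia, and 6710 (42.6%) were called and at least 2-fold apart. The 4 and 4 libraries did not overlap for 8701 genes (55.2%), with retinal libraries above for 4660 (29.6%) and below for 4041 (25.7%). With calls this common, a gene list stands beside a background of 32.2% higher and 27.1% lower, and a share near these says nothing about the list. The lists were chosen with earlier results of these data known, so their counts describe the members and are no independent support. The median log2 fold change over all tested genes was 0.12, and 0.245 with total counts in place of TMM factors, a shift of 0.12 toward retinal microglia. In sorted bulk samples, fewer cells of a type and less RNA per cell cannot be told apart.

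**Figure D2:**
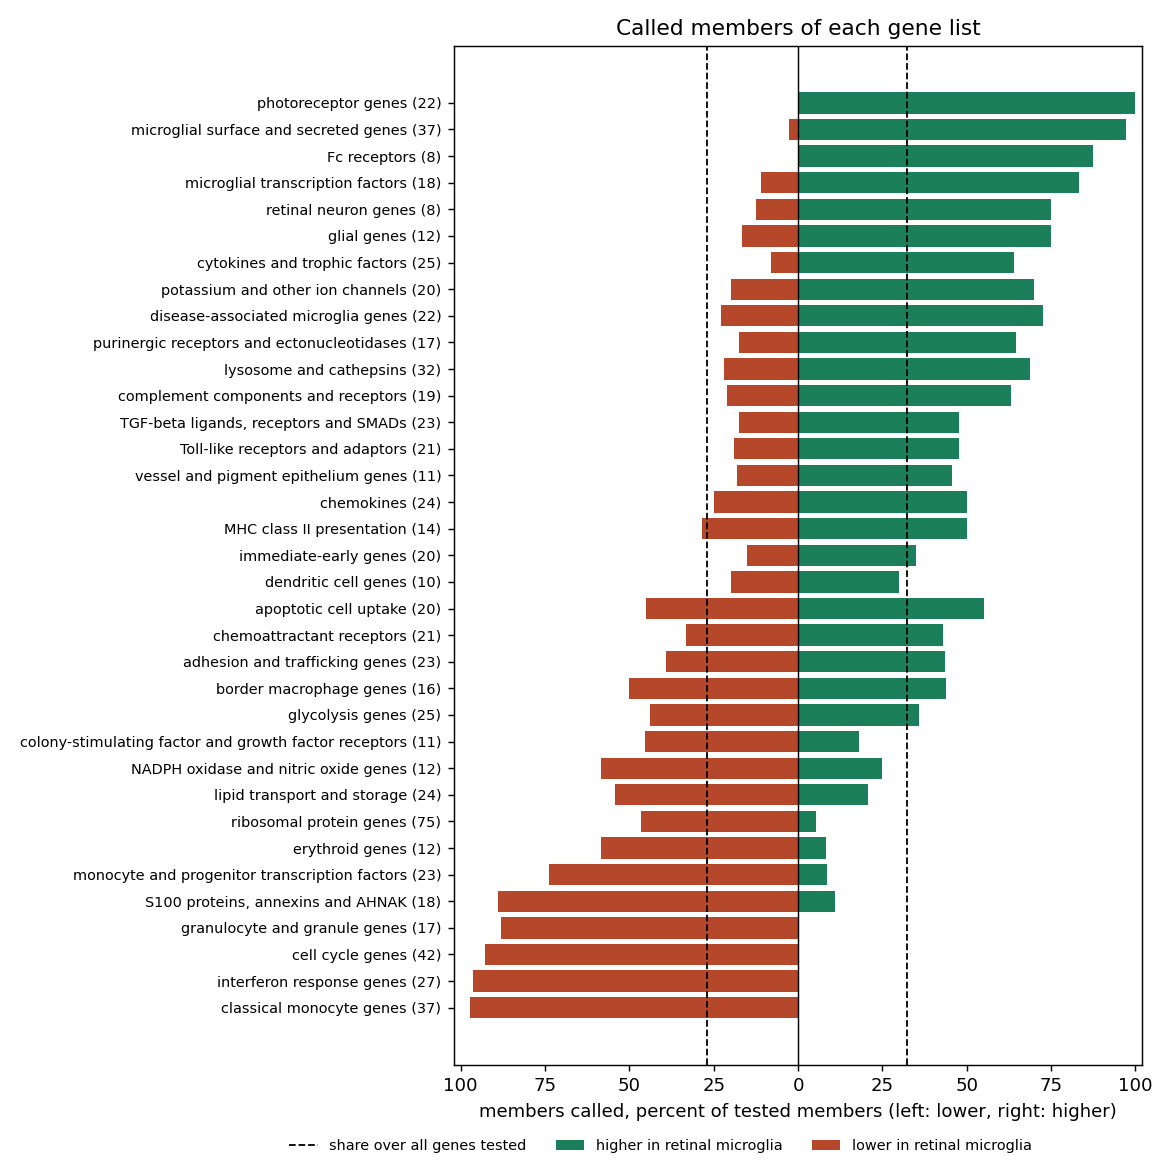
Share of the tested members of each gene list that were called higher (bars to the right) or lower (bars to the left) in retinal microglia, in percent, with the number of tested members in brackets; dashed lines give the share over all genes tested (32.2% higher, 27.1% lower). Microglial surface genes and photoreceptor genes lie at the top, classical monocyte, interferon response and cell cycle genes at the bottom.

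The genes that define microglia were higher in retinal microglia almost without exception. Of the microglial surface and secreted genes, 36 of 37 tested members were higher and 1 lower (median log2 fold change 5.35). P2ry12, the ADP receptor that steers microglial processes toward injury, had 6702, 8298, 8502 and 6606 CPM in retinal microglia, against 4.83, 8.17, 8.13 and 6.75 CPM in monocytes. Every retinal library stood far above every marrow library (log2 fold change 10.09, SE 0.27; edgeR adjusted p = 3.09e-14). Its neighbour P2ry13, a second ADP receptor, had 1775 ± 437 CPM in retinal microglia and 8.16 ± 1.13 CPM in monocytes, and Gpr34, a lysophosphatidylserine receptor, 2767 ± 403 CPM in retinal microglia and 2.56 ± 0.488 CPM in monocytes. Tmem119, a membrane protein used as a microglial marker, had 2551, 2934, 3437 and 2420.2 CPM in retinal microglia, against 5.6, 4.09, 4.47 and 6.46 CPM in monocytes. Siglech, a lectin, had 1438 ± 325 CPM in retinal microglia and 0.29 ± 0.286 CPM in monocytes. Sparc, a secreted matrix protein, had 3458 ± 843 CPM in retinal microglia and 0.621 ± 0.321 CPM in monocytes. Olfml3, another secreted protein, had 2306 ± 515 CPM in retinal microglia and 0.532 ± 0.643 CPM in monocytes. Monocytes thus held next to none of these. Fcrls, an Fc receptor-like gene, had 428, 754, 684 and 499 CPM in retinal microglia, against 0.226, 0.698, 0.274 and 0.994 CPM in monocytes. Slc2a5, the fructose transporter, had 2 counts in the 4 marrow libraries together, and its pooled level was 17202-fold (95% counting interval 4762 to 142049) higher in retinal microglia.

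Some of these genes were also well expressed in monocytes. Cx3cr1, the fractalkine receptor that is present on both cell types, had 3573, 4128, 2703 and 3887 CPM in retinal microglia, against 336, 401, 388 and 643 CPM in monocytes, so that the lowest retinal library stood above the highest marrow library (log2 fold change 3.01, SE 0.20; edgeR adjusted p = 1.33e-09). Selplg, the ligand of P-selectin, had 5055 ± 1383 CPM in retinal microglia and 789 ± 28.2 CPM in monocytes. Trem2, a lipid-sensing receptor, had 984 ± 244 CPM in retinal microglia and 29.5 ± 4.53 CPM in monocytes (log2 fold change 5.06), whereas its adaptor Tyrobp was the list's exception and lower (623 ± 115 CPM in retina, 866 ± 163 CPM in marrow; log2 fold change -0.48, SE 0.17). The libraries of Tyrobp overlapped, and its call ended with total counts (-0.36), without any 1 of retinal libraries 2 and 4 and marrow libraries 1 and 2, and without all of retinal libraries 1 and 4 and marrow libraries 1 and 2 (-0.14).

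Transcription factors split between the populations. Of the microglial transcription factors, 15 of 18 tested members were higher and 2 lower (median log2 fold change 1.45). Sall1, the zinc finger factor that keeps microglial identity, had 672, 578, 353 and 557 CPM in retinal microglia and 1 count in the 4 marrow libraries together, a pooled level 30433-fold (95% counting interval 5462 to 1202070.0) higher. Its relative Sall3 also had 1 marrow count (165 ± 26.9 CPM in retinal microglia). Bhlhe41, a basic helix-loop-helix repressor, had 384 ± 40.4 CPM in retinal microglia and 0.136 ± 0.0639 CPM in monocytes. Etv5, an ETS factor, had 165 ± 23.7 CPM in retinal microglia and 1.56 ± 0.698 CPM in monocytes. Maf, a large MAF factor, had 411 ± 144 CPM in retinal microglia and 11.6 ± 2.79 CPM in monocytes. The log2 fold change was 2.64 for Mef2c (651 ± 176 CPM in retina, 105 ± 21.5 CPM in marrow). It was 1.94 for Smad3, a transducer of TGF-beta (100.0 ± 26.5 CPM in retina, 26 ± 7.66 CPM in marrow). The shared lineage factors lay close together. Spi1 had 172, 205, 274 and 193 CPM in retinal microglia, against 274, 291, 262 and 223 CPM in monocytes. The libraries overlapped and the gene was not called (log2 fold change -0.31, SE 0.14; edgeR adjusted p = 0.0692), but it was called without retinal library 3 (-0.47) or marrow library 4 (-0.39). Irf8, a partner of PU.1, was higher (597 ± 66.5 CPM in retina, 391 ± 47.9 CPM in marrow; log2 fold change 0.61). Tfec (0.449 ± 0.508 CPM in retina, 22.4 ± 2.31 CPM in marrow) and Id2 (43.1 ± 4.18 CPM in retina, 106 ± 26.3 CPM in marrow) were the listed factors that were lower.

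Of the monocyte and progenitor transcription factors, 2 of 23 tested members were higher and 17 lower (median log2 fold change -2.25), and 3 listed members were not tested for low counts. Klf4, needed for monocyte differentiation, had 2.52, 10.5, 4.2 and 5.43 CPM in retinal microglia, against 64.4, 98.4, 73.5 and 77.8 CPM in monocytes. Nr4a1, which supports the Ly6C-low monocyte fate, had 2.74 ± 0.358 CPM in retinal microglia and 60.7 ± 27.3 CPM in monocytes. Nfe2, known from the erythroid and megakaryocyte lineages, had 0.158, 1.03, 0 and 1.21 CPM in retinal microglia, against 214, 202, 189 and 253 CPM in monocytes, so that it was a high and even feature of all 4 marrow libraries. Cebpb was lower (129 ± 16.8 CPM in retina, 426 ± 112 CPM in marrow), as was Runx3 (1.02 ± 0.277 CPM in retina, 24.7 ± 1.77 CPM in marrow). Irf4 (5.58 ± 3.45 CPM in retina, 34.6 ± 10.9 CPM in marrow) and the progenitor factor Myb (0.794 ± 0.753 CPM in retina, 17 ± 4.01 CPM in marrow) were lower from smaller levels. The granulocyte factors Gfi1 and Cebpe had no count in any retinal library, against 2.37 ± 1.46 CPM and 4.4 ± 2.24 CPM in monocytes. Against the list's direction, Myc was higher (57.9 ± 6.2 CPM in retina, 4.57 ± 1.8 CPM in marrow; log2 fold change 3.65). Cebpa was higher as well (56.9 ± 13.5 CPM in retina, 27.8 ± 5.35 CPM in marrow; 1.03), a call that ended with the lane as a term (0.46). Klf6 (284 ± 23.2 CPM in retina, 332 ± 55.9 CPM in marrow) and Cebpd (45.8 ± 11.1 CPM in retina, 58.8 ± 8.13 CPM in marrow) were not called.

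The classical monocyte genes were lower in retinal microglia with a single member not called: of the 37 tested, 36 were lower and 0 higher (median log2 fold change -7.69). The list holds Ly6c2, an antigen of the marrow gate, so its count is in part set by the sort. Lyz2, lysozyme of macrophages, was the most abundant gene of monocytes by CPM, with 517, 427, 753 and 313 CPM in retinal microglia, against 36929.9, 34943, 35819.8 and 35324 CPM in monocytes. It was thus still present in retinal microglia (log2 fold change -6.15, SE 0.26; edgeR adjusted p = 3.42e-12). Chil3, a chitinase-like protein of early monocytes, had 1.26, 0, 0 and 0.0403 CPM in retinal microglia, against 6234, 4024, 5052 and 6982 CPM in monocytes. Ccr2, the receptor by which monocytes leave the marrow, had 0.631, 0.977, 0.862 and 0.403 CPM in retinal microglia, against 2204, 2402, 2950.4 and 3197 CPM in monocytes, so that monocytes held it in every library and retinal microglia at 1 CPM or below. F13a1, a clotting factor subunit, had 4.01 ± 6.27 CPM in retinal microglia and 6386 ± 1189.9 CPM in monocytes. Fn1, fibronectin, had 0.984 ± 1.08 CPM in retinal microglia and 6817 ± 732 CPM in monocytes. Hp, haptoglobin, had 0.0986 ± 0.197 CPM in retinal microglia and 1079.9 ± 93.3 CPM in monocytes. All showed the same order. Cd177, a surface protein better known from neutrophils, had no count in any retinal library and 667, 637, 578 and 550.4 CPM in monocytes, and was at least 15719-fold lower. Milder differences were also found. Cd44, the hyaluronan receptor, had a log2 fold change of -4.52 (22.4 ± 2.44 CPM in retina, 512 ± 78.6 CPM in marrow). That of Lgals3, which encodes galectin-3, was -5.56 (30.9 ± 11.4 CPM in retina, 1462 ± 105 CPM in marrow). That of Thbs1, which encodes thrombospondin, was -2.32 (12.8 ± 3.97 CPM in retina, 63.3 ± 17.9 CPM in marrow). Ly6a was the member that was not called (6.99 ± 3.03 CPM in retina, 8.97 ± 1.8 CPM in marrow).

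The S100 calcium-binding proteins, the annexins that bind membranes with them, and the scaffold AHNAK were mostly lower, with 2 of 18 tested members higher and 16 lower (median log2 fold change -3.75). Ahnak had 0.71, 0.635, 0.0539 and 0.805 CPM in retinal microglia, against 1386, 1571, 1348 and 1536 CPM in monocytes. S100a6 had 0.133 ± 0.183 CPM in retinal microglia and 418 ± 115 CPM in monocytes. S100a4 had 0.0424 ± 0.0571 CPM in retinal microglia and 63.5 ± 18.3 CPM in monocytes. The annexins that pair with such proteins showed the same order. Anxa2 had 16 ± 7.33 CPM in retinal microglia and 1676 ± 205 CPM in monocytes. Anxa1 had 3.03 ± 1.16 CPM in retinal microglia and 765 ± 72.8 CPM in monocytes. The alarmin S100a8 had 1 retinal count, against 743, 373, 77.6 and 31.9 CPM in monocytes. Its partner S100a9 had 1 retinal count, against 666, 296, 50.7 and 29 CPM in monocytes. Both varied among marrow libraries in the order of the late granule gene Ngp described below, and the part of granulocytes in this was not tested. Anxa3 went the other way (639 ± 78.2 CPM in retina, 153 ± 29 CPM in marrow; log2 fold change 2.06), as did the lowly expressed Ahnak2 (1.34 ± 0.845 CPM in retina, 0.129 ± 0.156 CPM in marrow).

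**Figure D3:**
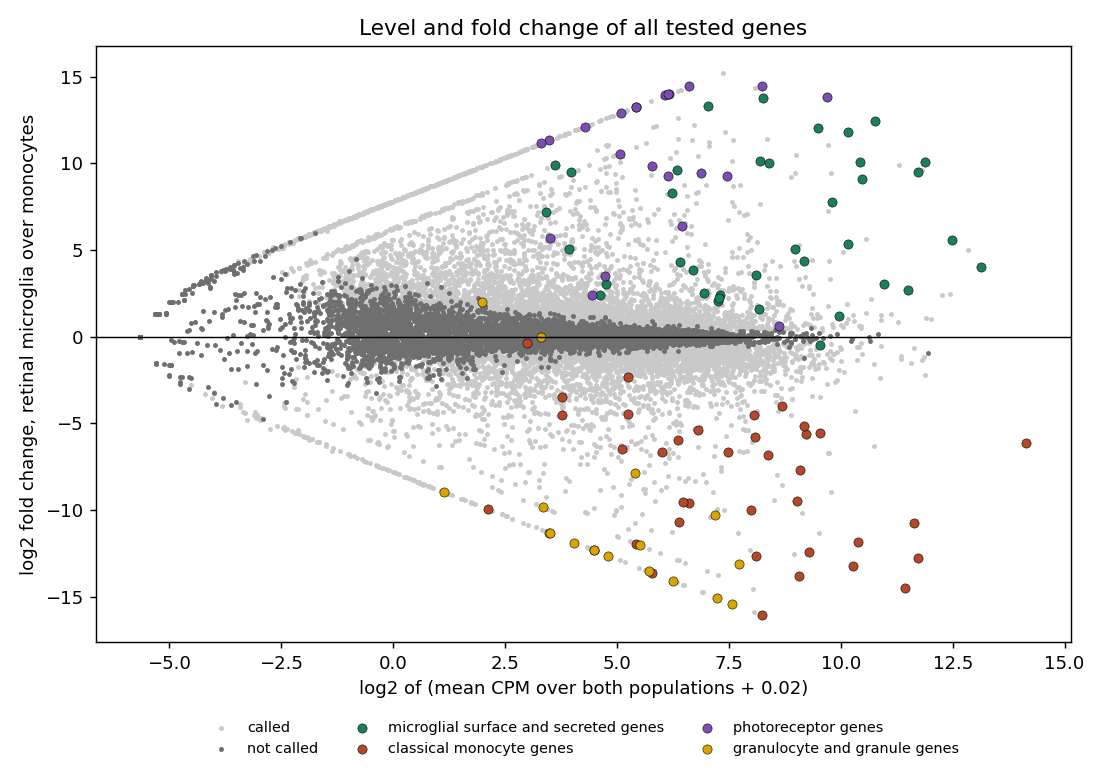
Log2 fold change of each tested gene (retinal microglia over monocytes) against the log2 of its mean CPM over both populations plus 0.02; each point is a gene. Microglial surface genes and photoreceptor genes lie above 0, Tyrobp excepted, and classical monocyte and granule genes below it, Olfm4 excepted, at high as well as low levels; the straight outer edges hold genes with no count in 1 population.

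Receptors for growth signals were set differently. The growth factor receptor list, Csf1r included, had 2 of 11 tested members higher (18.2%) and 5 lower (45.5%), beside 32.2% and 27.1% over all genes. Flt3, a receptor of progenitors and dendritic cells, had 2.37, 2.0, 2.85 and 1.01 CPM in retinal microglia, against 38.4, 24.4, 31.2 and 51.5 CPM in monocytes. Both chains of the GM-CSF receptor were lower. Csf2ra had 95.2 ± 18.7 CPM in retinal microglia and 192 ± 24.5 CPM in monocytes. Csf2rb had 117 ± 4.72 CPM in retinal microglia and 263 ± 11.7 CPM in monocytes. Csf3r, the receptor of G-CSF, was higher (410.2 ± 23.6 CPM in retina, 248 ± 8.53 CPM in marrow; log2 fold change 0.72). In the TGF-beta list, 11 of 23 tested members were higher (47.8%) and 4 lower (17.4%), beside the same background (median log2 fold change 1.07). The signalling receptor Tgfbr1 had 2111, 1757, 947 and 1749.9 CPM in retinal microglia, against 74.9, 76.8, 80.4 and 83.6 CPM in monocytes. Its partner Tgfbr2 had 1154, 1077, 748 and 921 CPM in retinal microglia, against 96.9, 103, 92.4 and 102 CPM in monocytes. Neither overlapped. Smad7, the inhibitory SMAD of the pathway, was higher (65.6 ± 1.8 CPM in retina, 4.37 ± 0.828 CPM in marrow). The repressors Ski (339 ± 98 CPM in retina, 73.3 ± 6.23 CPM in marrow) and Skil (261 ± 85.4 CPM in retina, 57 ± 14.9 CPM in marrow) were higher too. The ligand Tgfb1 was not called (146 ± 21.9 CPM in retina, 161 ± 37 CPM in marrow; log2 fold change -0.15, SE 0.22). The co-SMAD Smad4 was lower (60.5 ± 14.3 CPM in retina, 139.8 ± 17.7 CPM in marrow). Nrros, which tethers latent TGF-beta in myeloid cells, was lower (300.1 ± 19.6 CPM in retina, 473 ± 25.3 CPM in marrow).

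Among purinergic receptors and the ectonucleotidases that supply their ligands, 11 of 17 tested members were higher and 3 lower (median log2 fold change 1.48). Other members were higher beside P2ry12 and P2ry13. Adora3, an adenosine receptor, had 75 ± 11.2 CPM in retinal microglia and 1.7 ± 1.04 CPM in monocytes. Entpd1, which degrades ATP and ADP, had 510.4 ± 101 CPM in retinal microglia and 44 ± 5.98 CPM in monocytes. P2rx7, an ATP-gated channel, had 241 ± 65.4 CPM in retinal microglia and 97.4 ± 8.42 CPM in monocytes. The adenosine receptor Adora1 had no marrow count (21.7 ± 4.62 CPM in retinal microglia) and was at least 400.5-fold higher. In the opposite direction, P2ry1, another ADP receptor, had 2 retinal counts and 44.6, 31.3, 49 and 36.5 CPM in monocytes, and Adora2b had 0.295 ± 0.555 CPM in retinal microglia and 44.8 ± 7.5 CPM in monocytes. Receptors for the same ligands thus differed in opposite directions.

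Of the chemoattractant receptors, 9 of 21 tested members were higher (42.9%) and 7 lower (33.3%). These shares lay not far from the 32.2% and 27.1% over all genes, so the counts say little about the list. The receptors of complement peptides were higher. C3ar1, the C3a receptor, had 552 ± 16.4 CPM in retinal microglia and 12.6 ± 1.45 CPM in monocytes. C5ar1, the C5a receptor, had 464 ± 44 CPM in retinal microglia and 27.7 ± 6.72 CPM in monocytes. C5ar2, a second C5a receptor, had 53.7 ± 9.5 CPM in retinal microglia and 3.44 ± 0.647 CPM in monocytes. S1pr1, a sphingosine phosphate receptor, had 41.6 ± 9.83 CPM in retinal microglia and 0.0498 ± 0.0997 CPM in monocytes. It was higher too. Beside Ccr2, receptors of marrow retention and of early inflammation were lower. Cxcr4, which retains cells in marrow, had 0.672 ± 0.183 CPM in retinal microglia and 21.8 ± 11.3 CPM in monocytes. Ltb4r1, a leukotriene receptor, had 0.201 ± 0.219 CPM in retinal microglia and 98.7 ± 7.22 CPM in monocytes. The formyl peptide receptors were Fpr1 (0.0855 ± 0.171 CPM in retina, 7.07 ± 2.36 CPM in marrow) and Fpr2 (0.0696 ± 0.0818 CPM in retina, 16.4 ± 2.07 CPM in marrow). Ccr1 was modestly lower (63.7 ± 6.94 CPM in retina, 115 ± 22.2 CPM in marrow; log2 fold change -0.85). Among chemokines, 12 of 24 tested members were higher (50%) and 6 lower (25%), beside the same background. Ccl12, a CCR2 ligand of mice, had 121, 279, 227 and 265 CPM in retinal microglia, against 0.226, 0.0997, 0 and 0.213 CPM in monocytes. Other chemokines were higher as well. Ccl3 had 94.5 ± 25.5 CPM in retinal microglia and 17.6 ± 10.3 CPM in monocytes. Ccl4 had 57.6 ± 13.2 CPM in retinal microglia and 2.13 ± 0.224 CPM in monocytes. Cxcl16, which is membrane-bound, had 99.2 ± 23.3 CPM in retinal microglia and 2.95 ± 1.14 CPM in monocytes. Lower were 2 chemokines abundant in monocytes. Ccl6 had 317 ± 115 CPM in retinal microglia and 1114 ± 100.1 CPM in monocytes. Ccl9 had 181 ± 56.8 CPM in retinal microglia and 680.2 ± 146 CPM in monocytes. Of the cytokines and trophic factors, 16 of 25 tested members were higher and 2 lower (median log2 fold change 2.27). Interleukin 1 alpha (Il1a) had 116, 83.7, 72.6 and 71.7 CPM in retinal microglia and 2 counts in all marrow libraries together. Il1b was low in both and not called (3.18 ± 0.78 CPM in retina, 2.26 ± 1.14 CPM in marrow). The antagonist Il1rn was lower (1.88 ± 1.11 CPM in retina, 25.1 ± 6.22 CPM in marrow). The platelet-derived growth factor chains were higher (Pdgfa, 31 ± 10.4 CPM in retina, 0.215 ± 0.249 CPM in marrow; Pdgfb, 102 ± 11.9 CPM in retina, 0.904 ± 0.267 CPM in marrow). Tgfa, an EGF receptor ligand, had 118 ± 25 CPM in retinal microglia and 1 marrow count.

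Adhesion and trafficking genes included large differences in both directions, with a median log2 fold change of 0.01. Of 23 tested members 10 were higher (43.5%) and 9 lower (39.1%), beside 32.2% and 27.1% over all genes. Integrin chains moved in both directions. Among those that were lower, Itgal, the alpha chain of LFA-1, had 5.44, 3.57, 2.8 and 2.78 CPM in retinal microglia, against 321, 388, 350.2 and 367 CPM in monocytes. Itga4, another alpha chain, had 4.49 ± 4.12 CPM in retinal microglia and 449 ± 73.8 CPM in monocytes. Itgb7, a beta chain that can pair with Itga4, had 1.03 ± 0.766 CPM in retinal microglia and 1127 ± 14.4 CPM in monocytes. The beta chain shared by LFA-1 and CD11b, Itgb2, was lower by less (802 ± 63.6 CPM in retina, 1233 ± 99.3 CPM in marrow; log2 fold change -0.62). Other chains were higher. Itgb5, a vitronectin receptor chain, had 2246 ± 283 CPM in retinal microglia and 55.2 ± 5.22 CPM in monocytes. Itgav, its partner chain, had 206 ± 63.4 CPM in retinal microglia and 98.5 ± 10.9 CPM in monocytes. Itga6, a laminin receptor chain, had 494 ± 155 CPM in retinal microglia and 15.5 ± 4.35 CPM in monocytes. The junctional protein F11r had 955, 999, 1029.9 and 804 CPM in retinal microglia, against 1.17, 0.698, 1.46 and 2.98 CPM in monocytes. Itgb1 was not called (381 ± 81.4 CPM in retina, 402 ± 23.6 CPM in marrow; log2 fold change -0.08, SE 0.13).

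**Figure D4:**
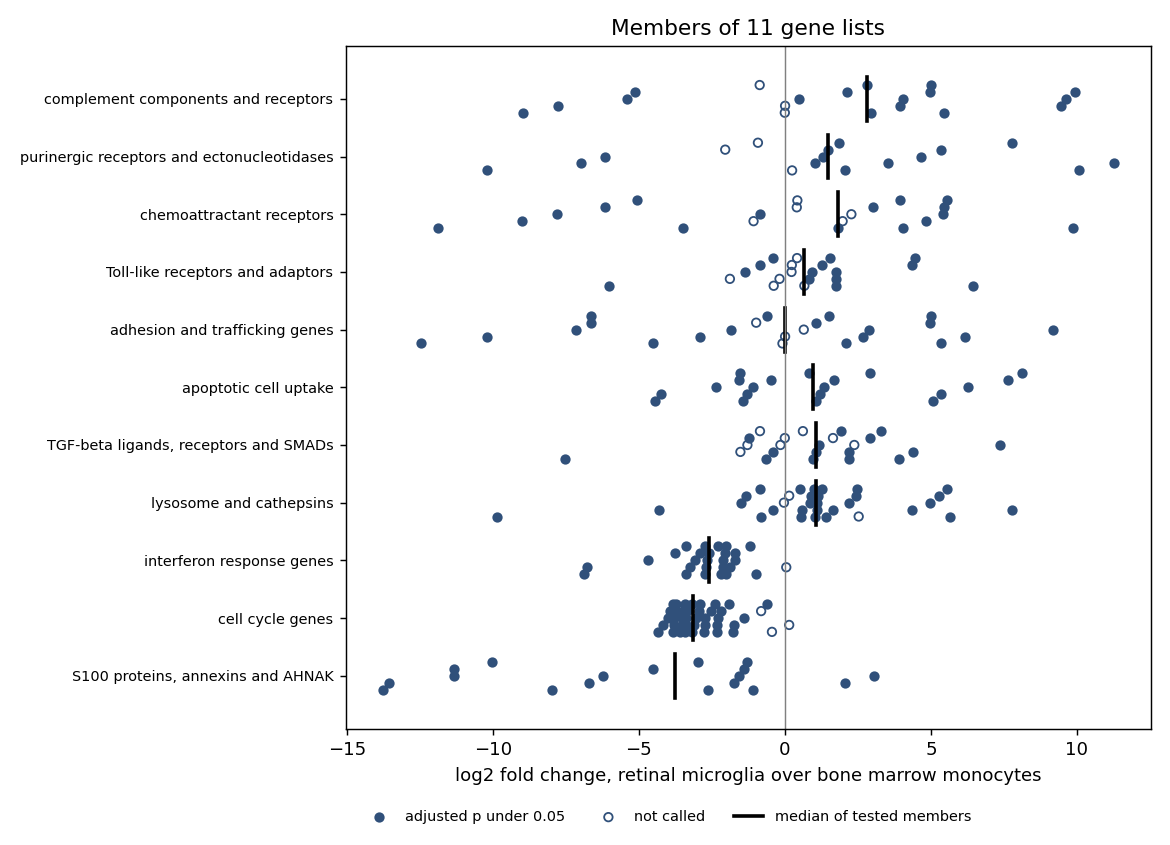
Log2 fold changes (retinal microglia over monocytes) of the tested members of 11 gene lists; each dot is a gene, filled where called and open where not, and the bar is the median of the tested members. Interferon response and cell cycle genes gather below 0 with medians of -2.59 and -3.15, while receptor, adhesion and complement genes spread to both sides.

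Genes of dying-cell uptake had 11 of 20 tested members higher (55%) and 9 lower (45%), beside 32.2% and 27.1% over all genes. Mertk, the uptake receptor of resident macrophages, had 735, 607, 476 and 517 CPM in retinal microglia, against 3.66, 2.69, 2.83 and 2.2 CPM in monocytes. Its bridging ligands and related proteins were higher too. Gas6, a ligand of MERTK, had 189.9 ± 34.4 CPM in retinal microglia and 0.615 ± 0.711 CPM in monocytes. Pros1, another ligand of MERTK, had 989 ± 129 CPM in retinal microglia and 130.1 ± 28.6 CPM in monocytes. Stab1, a scavenger receptor, had 157 ± 39.4 CPM in retinal microglia and 1.83 ± 1.51 CPM in monocytes. Mfge8, which bridges dying cells to integrins, had 69.2 ± 3.31 CPM in retinal microglia and 21.7 ± 3.83 CPM in monocytes. Axl, the related receptor, was higher by less (255 ± 66.6 CPM in retina, 109.6 ± 10.8 CPM in marrow; log2 fold change 1.22, SE 0.23). Lower members included Cd300a (151 ± 27.2 CPM in retina, 404 ± 18.3 CPM in marrow), Scarb1 (109 ± 9.76 CPM in retina, 320.4 ± 6.79 CPM in marrow) and the engulfment regulator Dock2 (303 ± 92.3 CPM in retina, 755 ± 72.9 CPM in marrow).

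Complement genes differed in both directions. The list had 12 of 19 tested members higher and 4 lower (median log2 fold change 2.83). The 3 chains of C1q, which start the classical pathway and tag synapses, were among the strongest microglial genes: C1qb had 5826, 7057, 9856 and 5927 CPM in retinal microglia, against 22.9, 9.37, 2.28 and 0.781 CPM in monocytes. C1qa had 1765 ± 531 CPM in retinal microglia and 2.29 ± 2.67 CPM in monocytes, and C1qc 5078 ± 1206 CPM in retinal microglia and 5.02 ± 5.15 CPM in monocytes. The small C1q counts of monocytes were uneven, highest in marrow library 1. C3, the central component, went the other way, with 2.29, 2.64, 5.17 and 3.78 CPM in retinal microglia, against 1679.8, 1726, 1722 and 1955 CPM in monocytes, so that every marrow library exceeded every retinal library (log2 fold change -8.98, SE 0.32; edgeR adjusted p = 5.69e-13). Properdin (Cfp), which stabilizes the alternative pathway, had 1.5 ± 0.656 CPM in retinal microglia and 319 ± 19.8 CPM in monocytes.

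Toll-like receptors and adaptors had 10 of 21 tested members higher (47.6%) and 4 lower (19%), beside 32.2% and 27.1% over all genes (median log2 fold change 0.67). The co-receptor of endotoxin Cd14 had 562, 756, 730.2 and 652 CPM in retinal microglia, against 52.9, 26.7, 26.1 and 26.2 CPM in monocytes, with no overlap. Tlr3, the sensor of double-stranded RNA, had 108 ± 28.5 CPM in retinal microglia and 5.0 ± 1.77 CPM in monocytes. Tlr7, a sensor of single-stranded RNA, had 283 ± 15.9 CPM in retinal microglia and 97.5 ± 7.21 CPM in monocytes. Tlr4, the endotoxin receptor, had 133 ± 17.8 CPM in retinal microglia and 55.6 ± 11.9 CPM in monocytes. Tlr8 stood against them (1.23 ± 1.08 CPM in retina, 78.4 ± 13.5 CPM in marrow), as did the adaptor Myd88 (71.1 ± 5.46 CPM in retina, 183 ± 20.2 CPM in marrow). Of the Fc receptors, 7 of 8 tested members were higher and 0 lower, and 5 listed members were not tested for low counts. Fcgr3 had a log2 fold change of 1.66 (999 ± 209 CPM in retina, 317 ± 60.3 CPM in marrow). That of Fcgr2b, the inhibitory receptor, was 1.01 (260.5 ± 40.8 CPM in retina, 129 ± 26.6 CPM in marrow). The shared gamma chain Fcer1g was not called (598 ± 138 CPM in retina, 660.5 ± 157 CPM in marrow; log2 fold change -0.14).

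Lysosomal genes were higher in their majority, with 22 of 32 tested members higher and 7 lower (median log2 fold change 1.05). The aspartic protease Ctsd had 14112, 13032, 19189 and 10749.6 CPM in retinal microglia, against 554, 362, 437 and 466 CPM in monocytes. Cst3, the cystatin that inhibits cathepsins and the most abundant retinal gene by CPM, had 15701, 15738, 23671 and 12565 CPM in retinal microglia, against 1221, 1147, 941 and 800.3 CPM in monocytes. Further proteases were higher. Ctss had 9324 ± 1529.5 CPM in retinal microglia and 1716 ± 79.1 CPM in monocytes. Ctsz had 2691 ± 924 CPM in retinal microglia and 589 ± 29.8 CPM in monocytes. Ctsl had 954 ± 217 CPM in retinal microglia and 47.1 ± 7.06 CPM in monocytes. Lgmn, an asparaginyl protease, had 2969 ± 236 CPM in retinal microglia and 59.3 ± 8.39 CPM in monocytes. The membrane proteins Lamp1 (1583 ± 210.5 CPM in retina, 1614 ± 117 CPM in marrow; log2 fold change -0.03) and Lamp2 (1020.4 ± 134 CPM in retina, 918 ± 79.4 CPM in marrow; 0.15) were not called. Some members were lower. Psap, the saposin precursor, had a log2 fold change of -1.34 (2055 ± 755 CPM in retina, 5199 ± 719.5 CPM in marrow). That of Npc2, a sterol binder, was -0.83 (625 ± 55.5 CPM in retina, 1108 ± 102 CPM in marrow). That of Tfeb, a regulator of lysosomal genes, was -0.84 (33.4 ± 5.62 CPM in retina, 59.7 ± 8.92 CPM in marrow). In the lipid list, 5 of 24 tested members were higher and 13 lower (median log2 fold change -0.64). The cholesterol exporter Abca1 had 108 ± 52.5 CPM in retinal microglia and 6.53 ± 3.84 CPM in monocytes and Lpcat2, which remodels phospholipids, 2051 ± 307 CPM in retinal microglia and 69.2 ± 7.79 CPM in monocytes. Lpl, lipoprotein lipase, was lower (80.9 ± 13.3 CPM in retina, 452 ± 56 CPM in marrow). The droplet coat gene Plin2 was lower (47.3 ± 6.76 CPM in retina, 183 ± 16.7 CPM in marrow). The nuclear receptor gene Pparg had no retinal count and 10.7 ± 1.94 CPM in monocytes. Apoe, a lipid carrier, had 2779.8, 1871, 3616 and 1857 CPM in retinal microglia, against 1749, 1272, 1174 and 914 CPM in monocytes (log2 fold change 0.99, SE 0.22).

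Genes known from disease-associated microglia were called in both directions, with 16 of 22 tested members higher and 5 lower. Among those higher, Cd9 is a tetraspanin (1668 ± 513 CPM in retina, 10.7 ± 6.21 CPM in marrow) and Gpnmb a membrane glycoprotein (55.1 ± 19 CPM in retina, 1.52 ± 0.508 CPM in marrow). Itgax, which encodes CD11c (30.2 ± 14.5 CPM in retina, 0.873 ± 0.594 CPM in marrow), and Cst7, a cystatin (42.1 ± 21.2 CPM in retina, 5.18 ± 1.53 CPM in marrow), were higher too. Lgals3, Lpl and Cd52 (131 ± 26.5 CPM in retina, 509.6 ± 105 CPM in marrow) were lower, and so was the beta-glucan receptor Clec7a (290.4 ± 61.8 CPM in retina, 563 ± 76.7 CPM in marrow; log2 fold change -0.95). Border macrophage genes had 7 of 16 tested members higher (43.8%) and 8 lower (50%), beside 32.2% and 27.1% over all genes. Mrc1, the mannose receptor, had 9.31 ± 3.07 CPM in retinal microglia and 21.3 ± 2.11 CPM in monocytes. Ms4a7 had 17 ± 3.08 CPM in retinal microglia and 6.69 ± 1.02 CPM in monocytes.

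In the MHC class II list, 7 of 14 tested members were higher (50%) and 4 lower (28.6%), beside 32.2% and 27.1% over all genes. The invariant chain Cd74 had 149, 124, 199.7 and 123 CPM in retinal microglia, against 569, 731, 450.0 and 559 CPM in monocytes, and was lower (log2 fold change -1.95). The chains H2-Ab1 (72.9 ± 16.5 CPM in retina, 79.7 ± 37.1 CPM in marrow) and H2-Eb1 (15 ± 5.1 CPM in retina, 24.2 ± 9.96 CPM in marrow) were not called. H2-Aa was lower with overlapping libraries (26.2 ± 12.4 CPM in retina, 61.7 ± 20.8 CPM in marrow; log2 fold change -1.24). The class II transactivator gene Ciita was lower at small levels (0.571 ± 0.409 CPM in retina, 6.29 ± 0.685 CPM in marrow). The chains of the DO inhibitor were higher (H2-Oa, 30.5 ± 7.39 CPM in retina, 0.824 ± 0.317 CPM in marrow; H2-Ob, 82.8 ± 14.7 CPM in retina, 1.8 ± 0.95 CPM in marrow). The costimulatory genes Cd86 and Cd40 went apart, with Cd86 higher (341 ± 40.0 CPM in retina, 65.1 ± 6.94 CPM in marrow) and Cd40 lower (1.23 ± 1.69 CPM in retina, 38.3 ± 2.46 CPM in marrow).

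Interferon response genes were lower in retinal microglia throughout: of 27 tested members 26 were lower and 0 higher (median log2 fold change -2.59), beside 27.1% lower over all genes. Their summed level was 869, 731, 892 and 691 CPM in retinal libraries 1 to 4 and 4437, 5088, 4581 and 4450.0 CPM in marrow libraries 1 to 4, and the ranges did not overlap. Irf7, the factor that amplifies type I interferon, had 42, 31.8, 43.7 and 36.9 CPM in retinal microglia, against 389, 499, 404 and 315 CPM in monocytes. Rsad2, the antiviral enzyme viperin, had 12.2 ± 4.76 CPM in retinal microglia and 117 ± 7.62 CPM in monocytes. Ifit1, which binds foreign RNA caps, had 19.9 ± 2.45 CPM in retinal microglia and 129 ± 19.8 CPM in monocytes. Isg15, a ubiquitin-like modifier, had 9.31 ± 4.08 CPM in retinal microglia and 45.1 ± 11.3 CPM in monocytes. Oas3, which senses double-stranded RNA, had 0.552, 1.37, 0.862 and 2.01 CPM in retinal microglia, against 131, 167, 121 and 139.6 CPM in monocytes. Ifi47, an interferon-inducible GTPase, had 2.41 ± 0.911 CPM in retinal microglia and 286 ± 20.0 CPM in monocytes. The signal transducer Stat2 was lower as well (63.5 ± 11.8 CPM in retina, 231 ± 35.7 CPM in marrow). Bst2, tetherin, was the member not called (93.9 ± 28 CPM in retina, 90.7 ± 20.6 CPM in marrow).

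The promoters of these genes are known for the interferon-stimulated response element, which IRF and STAT factors bind. In RefSeq promoter windows (build GRCm38.p6, 250 bases before to 50 after a gene's start), the element, searched as GAAA, 2 further bases and GAAA again, stood on either strand in 12 of 21 list members with a window (57.1%), against 3.99% of all genes with a window. The 120 bases before the start are shown for 4 members, whose values are given above, because they carry these letters close to the start; capitals mark each match. They lie at chr4:156200819-156200938, minus strand (Isg15), chr19:34640769-34640888, plus strand (Ifit1), chr5:120777660-120777779, minus strand (Oas3) and chr12:26456453-26456572, minus strand (Rsad2).
Isg15: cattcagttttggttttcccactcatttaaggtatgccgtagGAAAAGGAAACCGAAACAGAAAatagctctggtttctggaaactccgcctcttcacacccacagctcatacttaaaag
Ifit1: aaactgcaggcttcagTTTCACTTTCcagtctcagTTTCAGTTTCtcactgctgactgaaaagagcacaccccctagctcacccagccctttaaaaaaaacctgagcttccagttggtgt
Oas3: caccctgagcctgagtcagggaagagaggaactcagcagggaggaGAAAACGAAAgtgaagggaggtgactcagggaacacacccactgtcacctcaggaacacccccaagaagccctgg
Rsad2: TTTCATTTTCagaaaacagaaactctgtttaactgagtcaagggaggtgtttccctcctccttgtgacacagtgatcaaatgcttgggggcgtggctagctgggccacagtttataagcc
In Isg15, 3 matches overlap each other, starting 78, 72 and 66 bases before the start. Ifit1 has matches at 104 and 85 bases, Oas3 at 75 and Rsad2 at 120. A match describes these letters only.

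Cell cycle genes were lower to a similar extent. Of 42 tested members, 39 were lower and 0 higher (median log2 fold change -3.15), and the summed level was 476, 604, 493 and 388 CPM in retinal libraries 1 to 4 and 4322, 3268, 3482 and 3738 CPM in marrow libraries 1 to 4. Mki67, the proliferation marker, had 54.9, 38.1, 24.4 and 13.6 CPM in retinal microglia, against 492, 356, 419.7 and 447 CPM in monocytes. Top2a, the topoisomerase of dividing cells, had 26, 26.5, 19 and 18.8 CPM in retinal microglia, against 486, 344, 378 and 418 CPM in monocytes, with a count in every retinal library. Other members showed the same order. Kif11, a mitotic motor, had 5.09 ± 4.54 CPM in retinal microglia and 103 ± 14.8 CPM in monocytes. Cdc20, which activates the anaphase-promoting complex, had 5.34 ± 3.5 CPM in retinal microglia and 41.4 ± 8.63 CPM in monocytes. Cdk1, the mitotic kinase, had 12.7 ± 5.08 CPM in retinal microglia and 62.6 ± 11.2 CPM in monocytes. Rrm2, which makes DNA precursors, had 14.4 ± 5.97 CPM in retinal microglia and 154 ± 28.7 CPM in monocytes. The replication clamp Pcna was not called (21.6 ± 4.45 CPM in retina, 29.3 ± 9.74 CPM in marrow). Nor were the thymidine pathway enzymes Tyms (17.5 ± 3.2 CPM in retina, 15.8 ± 2.85 CPM in marrow) and Tk1 (11.3 ± 1.44 CPM in retina, 19.8 ± 2.11 CPM in marrow).

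Many mitotic promoters are known to carry CCAAT boxes, which NF-Y binds, and a CHR element near the start. The letters TTTGAA, a form of the CHR, stood on either strand in 16 of 34 list members with a window (47.1%, against 20.2% of all genes), and CCAAT in 27 of 34 (79.4%, against 41.1%). The form TTCGAA stood in 4 of 34 (1.8% of all genes). The 120 bases before the start of 4 members that were lower are shown with both motifs in capitals, at chr11:99024190-99024309, minus strand (Top2a), chr19:37376262-37376381, plus strand (Kif11), chr4:118437344-118437463, minus strand (Cdc20) and chr10:69352913-69353032, minus strand (Cdk1).
Top2a: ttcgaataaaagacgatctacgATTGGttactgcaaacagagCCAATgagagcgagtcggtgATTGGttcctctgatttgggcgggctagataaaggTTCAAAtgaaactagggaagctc
Kif11: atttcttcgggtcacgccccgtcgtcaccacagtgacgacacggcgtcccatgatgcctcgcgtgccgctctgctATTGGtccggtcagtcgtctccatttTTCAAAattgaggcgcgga
Cdc20: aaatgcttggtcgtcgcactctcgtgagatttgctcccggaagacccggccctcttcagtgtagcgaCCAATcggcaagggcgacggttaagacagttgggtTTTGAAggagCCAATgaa
Cdk1: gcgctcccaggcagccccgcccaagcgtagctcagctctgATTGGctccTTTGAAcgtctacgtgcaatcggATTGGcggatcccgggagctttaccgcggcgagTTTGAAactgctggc
In all 4 a CHR match lies within 23 bases of the start (at 23, 19, 18 and 15 bases), with at least 1 CCAAT box before it.

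Immediate-early genes, known to be induced by tissue handling, had 7 of 20 tested members higher and 3 lower, the higher share being close to the background. Egr1 had 18, 127, 14.4 and 146 CPM in retinal microglia, against 0.768, 0, 0.548 and 1.07 CPM in monocytes, so that retinal libraries 2 and 4 stood above 1 and 3. Jun (388 ± 142 CPM in retina, 57.8 ± 34.4 CPM in marrow) and Junb (622 ± 235 CPM in retina, 168 ± 69.3 CPM in marrow) were higher. So was Ier3 (37.9 ± 11.9 CPM in retina, 3.87 ± 1.16 CPM in marrow), and Fosl2 was lower (10.9 ± 4.39 CPM in retina, 104 ± 8.27 CPM in marrow). Fos was not called (59 ± 47.4 CPM in retina, 105 ± 123 CPM in marrow; log2 fold change -0.83).

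In the list of oxidase and nitric oxide genes, 3 of 12 tested members were higher (25%) and 7 lower (58.3%), beside 32.2% and 27.1% over all genes. The lower members included the catalytic subunit of the phagocyte oxidase. Cybb, which encodes gp91phox, had 55.4, 33, 41.9 and 40.9 CPM in retinal microglia, against 3091, 2974, 3306 and 4159.7 CPM in monocytes (log2 fold change -6.31, SE 0.24; edgeR adjusted p = 1.45e-12). Its membrane partner Cyba (375 ± 73 CPM in retina, 523 ± 99.4 CPM in marrow; log2 fold change -0.48) and the cytosolic subunit Ncf1 (391 ± 49.4 CPM in retina, 314 ± 28.7 CPM in marrow; 0.31) were called in opposite directions with overlapping libraries. The call of Ncf1 ended without any 1 of retinal libraries 1, 2 and 3 and marrow libraries 2 and 3 and with the lane as a term (0.12), and that of Cyba without retinal libraries 1 and 4 and marrow libraries 1 and 2 (-0.11). Rac2, the GTPase of the complex, was lower (213 ± 53.3 CPM in retina, 885 ± 64.7 CPM in marrow), and the proton channel Hvcn1 was higher (157 ± 20.6 CPM in retina, 19.8 ± 4.09 CPM in marrow). Glycolysis genes had 9 of 25 tested members higher (36%) and 11 lower (44%), beside 32.2% and 27.1% over all genes. The pyruvate kinase gene Pkm (198 ± 29.7 CPM in retina, 576 ± 88.8 CPM in marrow) and the platelet phosphofructokinase gene Pfkp (19.8 ± 9.75 CPM in retina, 179.9 ± 8.73 CPM in marrow) were lower. The regulator Pfkfb3 was higher (152 ± 55.2 CPM in retina, 37.3 ± 4.72 CPM in marrow), and Ldha was not called (203 ± 19.1 CPM in retina, 208 ± 16.2 CPM in marrow). Ion channels had 14 of 20 tested members higher and 4 lower (median log2 fold change 1.42). The potassium channel genes Kcnk13 (150.3 ± 20.5 CPM in retina, 0.492 ± 0.403 CPM in marrow), Kcnd1 (66.1 ± 9.84 CPM in retina, 0.50 ± 0.597 CPM in marrow) and Kcnk6 (287 ± 24.2 CPM in retina, 44.2 ± 3.02 CPM in marrow) were higher. The mechanosensitive channel gene Piezo1 was lower (21.6 ± 9.77 CPM in retina, 63.6 ± 10.8 CPM in marrow). Of the ribosomal protein genes, 4 of 75 tested members were higher and 35 lower (median log2 fold change -0.47), with summed levels of 2574 to 3866 CPM in retinal libraries and 3866 to 7062 CPM in marrow libraries. Without retinal libraries 1 and 4 and marrow libraries 1 and 2, 7 were higher and 12 lower, and with a tested fold of 1.5, 2 and 14. Counting may also split reads among their pseudogene copies, so these counts are uncertain.

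Transcripts of other cells were measured in both sorts. In retinal microglia the photoreceptor genes summed to 4989, 3226, 1311 and 9988 CPM in libraries 1 to 4, against 318, 342, 295 and 343 CPM in monocytes. Nearly all of the monocyte sum was Gnb1, a G protein subunit also expressed outside the retina (479.7 ± 183 CPM in retina, 309 ± 24.4 CPM in marrow), whose libraries overlapped and whose call ended without retinal libraries 1 and 4 and marrow libraries 1 and 2 (0.19). All 22 tested photoreceptor genes were higher. The rod transducin gene Gnat1 had 818, 347, 153 and 1104 CPM in retinal microglia and 1 count in monocytes. Of the 8 tested retinal neuron genes 6 were higher, with sums of 62.3 to 206 CPM in retina and 33.1 to 47.2 CPM in marrow. Of the 12 tested glial genes 9 were higher, among them the glutamate transporter Slc1a3 (86.5 ± 8.47 CPM in retina, 0.237 ± 0.474 CPM in marrow), while vimentin (Vim), which monocytes also express, was lower (16.4 ± 2.78 CPM in retina, 1699 ± 52 CPM in marrow). The glial list, Vim included, summed to 289, 282, 291 and 348 CPM in retinal libraries 1 to 4. These sums varied far less than the photoreceptor sums. In marrow libraries the glial list summed to 1923 to 2033 CPM. Which cells held Slc1a3 was not tested. Among vessel and pigment epithelium genes, 5 of 11 tested members were higher (45.5%) and 2 lower (18.2%), beside 32.2% and 27.1% over all genes. The endothelial cadherin gene Cdh5 had 38 counts over the 4 retinal libraries and 1 over the 4 marrow libraries.

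**Figure D5:**
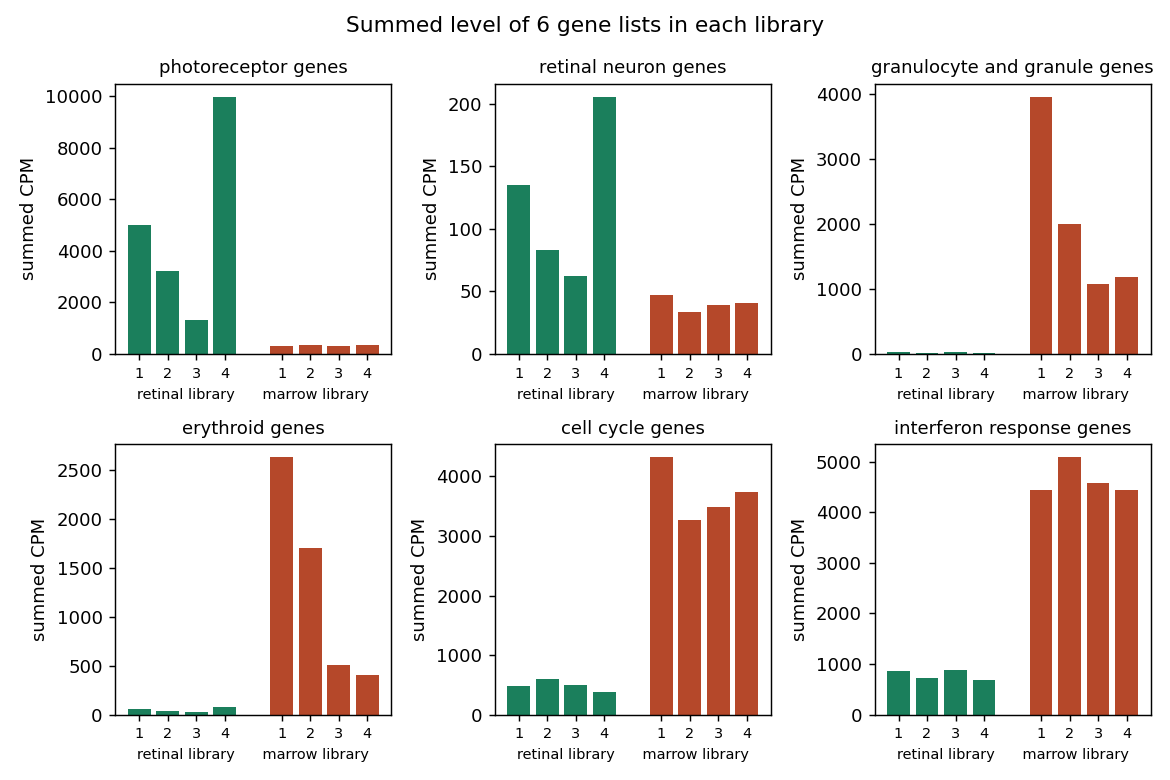
Summed CPM of the members of 6 gene lists in each library; bars are single libraries, retinal libraries 1 to 4 at the left and marrow libraries 1 to 4 at the right of each panel. Photoreceptor sums vary from 1311 to 9988 CPM among retinal libraries, granule gene sums from 1073 to 3958 CPM among marrow libraries, while the cell cycle and interferon sums are alike within each population.

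The granulocyte and granule genes summed to 22.2, 10.9, 23.6 and 10.8 CPM in retinal libraries 1 to 4, against 3958, 1999, 1073 and 1186 CPM in marrow libraries 1 to 4. Of 17 tested members 15 were lower in retinal microglia. The remaining members, Olfm4 (6.34 ± 2.56 CPM in retina, 1.57 ± 1.83 CPM in marrow; log2 fold change 1.99) and Chil1 (9.86 ± 5.21 CPM in retina, 9.88 ± 11 CPM in marrow; -0.02), were not called. Olfm4 was called higher without marrow library 1 (2.80). Myeloperoxidase (Mpo) had no retinal count and 590.0, 267, 298 and 358 CPM in monocytes, and the azurophil protease Elane no retinal count and 233, 122, 102 and 156 CPM, so that these early granule genes were present in all marrow libraries. The late granule genes Ngp (1080.1, 489, 77.7 and 45.5 CPM) and lactoferrin (Ltf; 758, 343, 73.2 and 40.3 CPM) were uneven among marrow libraries, highest in library 1, as were the haemoglobin genes, for example Hbb-bs (1075, 704, 187 and 150.0 CPM). Of the 12 tested erythroid genes 7 were lower and 1 higher. The list summed to 32.1 to 81 CPM in retinal and 410.5 to 2633 CPM in marrow libraries. Without retinal library 4, 15 members were tested, of which 11 were lower. Without retinal library 1, 2 or 3, also 15 were tested, of which 10 were lower. Haemoglobin gene copies are near-identical, so counts may be split between them. The listed neutrophil genes Ly6g (2.74 ± 2.64 CPM) and Cxcr2 (2.71 ± 2.82 CPM) were low in marrow. Their SD was about as large as their mean, and they were not among the tested members. The part of granulocyte and erythroid cells in the monocyte levels was not tested. Of the 21 listed lymphocyte genes, 5 were tested. Cd79b (56.6 ± 16.4 CPM in retina, 26.3 ± 3.18 CPM in marrow) and Cd22 (24.5 ± 6.8 CPM in retina, 0.416 ± 0.484 CPM in marrow) were higher. The T cell gene Cd3e had 1 count over the retinal libraries and 0 over the marrow libraries. Of the dendritic cell genes, 3 of 10 tested members were higher (30%) and 2 lower (20%), near the 32.2% and 27.1% over all genes. Their count therefore says nothing about the list. Cd209a, which marks a subset of monocytes too, was lower (0.197 ± 0.394 CPM in retina, 60.4 ± 8.99 CPM in marrow).

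A further fit, chosen after seeing the data, left out the 4 libraries richest in such transcripts (retinal 1 and 4, marrow 1 and 2). There 6529 genes were called, 3443 higher and 3086 lower. Fewer libraries entered, which by itself can lower the number of calls. In that fit 36 of 37 microglial surface genes were called higher, and 36 of 37 classical monocyte genes, 24 of 27 interferon genes and 35 of 42 cell cycle genes lower. Other lists moved more: 12 ribosomal protein genes were called lower there, against 35 over all libraries, 5 genes of apoptotic cell uptake, against 9, and 4 lysosomal genes, against 7. Ion channels had 10 members higher and 2 lower, against 14 and 4, and 3 vessel and pigment epithelium genes were higher, against 5.

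Granule promoters are known to be bound by PU.1 and C/EBP factors. Among the granule genes with a window, 8 of 18 held the C/EBP letters TTGCNNAA (44.4%, against 12.2% of all genes) and 6 of 18 the PU.1 letters GAGGAAGT (33.3%, against 3.69%). For the classical monocyte genes the shares were 25% and 7.14%, and for the microglial surface genes 27.3% and 0%. The 140 bases before the start of 4 granule genes are shown with C/EBP or PU.1 letters in capitals, at chr9:110419668-110419807, plus strand (Ngp), chr9:111019152-111019291, plus strand (Ltf), chr10:79886172-79886311, plus strand (Elane) and chr10:79879527-79879666, plus strand (Prtn3, proteinase 3, no retinal count and 55.5 ± 19.3 CPM in monocytes).
Ngp: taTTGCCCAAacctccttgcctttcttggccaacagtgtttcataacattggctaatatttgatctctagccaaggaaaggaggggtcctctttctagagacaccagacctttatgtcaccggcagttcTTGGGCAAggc
Ltf: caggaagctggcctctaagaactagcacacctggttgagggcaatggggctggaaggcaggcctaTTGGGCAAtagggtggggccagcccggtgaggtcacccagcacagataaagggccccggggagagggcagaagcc
Elane: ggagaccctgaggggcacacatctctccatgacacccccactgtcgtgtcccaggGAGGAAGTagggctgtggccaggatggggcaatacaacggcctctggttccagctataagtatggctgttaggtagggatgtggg
Prtn3: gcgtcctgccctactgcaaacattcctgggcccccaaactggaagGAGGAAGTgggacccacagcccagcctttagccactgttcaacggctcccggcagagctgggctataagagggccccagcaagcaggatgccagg
Ngp and Ltf carry the C/EBP letters, at 138 and 11 and at 75 bases before the start, and the neighbouring genes Elane and Prtn3 the PU.1 letters, at 85 and 95 bases. The 9 motifs searched also included TAATCC, bound by the photoreceptor factor CRX. It stood in 8 of 18 photoreceptor genes (44.4%, against 8.14% of all genes). The MEF2 motif, searched as CTA and TAG with 4 bases between them, stood in 1 of 22 microglial surface genes (4.55%, against 4.23%). The E-box CACGTG stood in 2 of 22 of these (9.09%, against 8.09%).

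The largest differences were sought among called genes without overlap and with at least 20 CPM in the higher population, passing over 9 genes on the lists of other cells in each direction. They were taken by fitted log2 fold change, which sets no order among genes with few or no counts in 1 population. Of the 15 leading genes higher in retinal microglia, Lrrc3, a leucine-rich repeat protein, had 325, 357, 278 and 369.9 CPM and no marrow count, at least 6422-fold higher. The tetraspanins Tspan7 (172 ± 18.7 CPM, at least 3289-fold) and Tspan18 (65.6 ± 9.05 CPM, at least 1219-fold), the protease inhibitor Spint1 (164 ± 29.5 CPM, at least 3130.2-fold), epsilon-sarcoglycan (Sgce; 129 ± 18.7 CPM, at least 2476-fold) and the junction scaffold Tjp1 (90.5 ± 43 CPM, at least 1675-fold) likewise had no marrow count. So did adenylate kinase 1 (Ak1; 73.3 ± 14.1 CPM), the collagen receptor Mrc2 (75.2 ± 24 CPM), the serine protease Htra3 (70.7 ± 10.1 CPM) and the prolyl hydroxylase P3h2 (65.1 ± 9.88 CPM). Sall1, Slc2a5 and Ecscr (264 ± 77.4 CPM, 1 marrow count) were also among them, and so was Cdhr1 (87.4, 37.9, 13.8 and 104 CPM), known from photoreceptors, whose level varied among retinal libraries in the order of the photoreceptor sums. Of the 15 leading genes lower in retinal microglia, 9 had no retinal count. Beside Cd177 these were I830127L07Rik (589, 536, 488 and 524 CPM in monocytes; at least 13899-fold lower), Nxpe4 (182 ± 14.9 CPM), Arhgef37 (162 ± 14.3 CPM), the protease inhibitor Slpi (115 ± 32.2 CPM), keratin 80 (Krt80; 108 ± 4.28 CPM), Ms4a8a (90.3 ± 7.26 CPM) and the signal-regulatory proteins Sirpb1b (99.6 ± 3.22 CPM) and Sirpb1c (110.1 ± 4.75 CPM), close copies whose reads may be shared. Coagulation factor X (F10) had 1 retinal count and 211, 170.3, 184 and 172 CPM in monocytes. The others were Chil3, Hp, S100a8, S100a9 and Ly6c2.

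The populations shared none of their 10 most abundant genes by CPM. After Cst3 and Ctsd, the leading retinal genes included Ctss, Csf1r, P2ry12 and C1qb. The tetraspanin gene Cd81 followed with 5470.3, 7196, 8505 and 6099 CPM in retinal microglia, against 15, 8.77, 3.93 and 9.66 CPM in monocytes. Next came Ctsb (5534 ± 759.8 CPM in retina, 2763 ± 171 CPM in marrow) and the membrane protein gene Itm2b (5194 ± 1059 CPM in retina, 2511 ± 207 CPM in marrow). The leading monocyte genes were Lyz2, Fn1, F13a1, the ribosomal RNA entry Rn18s-rs5 (1343 ± 833 CPM in retina, 6169.6 ± 2836 CPM in marrow) and Chil3. The mitochondrial transcript mt-Co1 followed with 1681, 2729, 4313 and 2032 CPM in retinal microglia, against 3484, 2881, 3632 and 10850.4 CPM in monocytes and was not called. Then came Psap, the class I chain H2-D1 (2297 ± 636 CPM in retina, 5103 ± 339 CPM in marrow), Lars2 (1593 ± 946 CPM in retina, 4497 ± 2075 CPM in marrow) and thymosin beta 4 (Tmsb4x; 2488 ± 478 CPM in retina, 3900.2 ± 1059 CPM in marrow). Ribosomal RNA, Lars2 and mt-Co1 differed up to severalfold among libraries of the same population. The listed genes with at least 100 CPM in both populations that differed least were Itgam, Btg2 (log2 fold change 0.02), Lamp1, Ldha, Il16 (-0.07), Itgb1, Zfp36 (0.09), Fcer1g, Tgfb1 and Lamp2. The SE of these 10 log2 fold changes lay between 0.11 and 0.30.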

How the data were processed

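Bulk RNA libraries of sorted cells were sequenced, and raw counts per gene were deposited by the authors in 1 table with a gene length column in bases; the submitters' processing notes name CASAVA 1.8.2, Subread, featureCounts, limma and build GRCm38.p4. Whether the library kit kept strand is uncertain, since the protocol text describes another tissue and mouse line, so reads of overlapping or antisense genes may be shared. The 4 retinal and 4 marrow libraries were compared with edgeR 4.0.16 (R 4.3.3) on the deposited counts: filterByExpr by population with a minimum count of 10, TMM factors, and a quasi-likelihood fit over all 16 libraries, with adjusted p under 0.05. Of 45664 entries 16739 had no count in any library and 15754 were tested; 27 entries with date-like symbols, at most 0.223% of a library, are not named. The SE is the absolute log2 fold change over the root of F. A fold against a population without counts is a lower bound against 3 counts over the group, and 1 to 3 counts give a ratio with a 95% exact counting interval; both cover counting error only. The members and lists were chosen with earlier results of these data known. Genes named are list members, the 15 largest changes in each direction among called genes with at least 20 CPM and no overlap (outside lists of other cells), the 10 most abundant per population, and the 10 listed genes with at least 100 CPM in both that differed least. Alternatives were total counts, DESeq2 1.42.0, no filter, the 8 libraries alone, the lane, a tested fold of 1.5, lists of other cells left out, and libraries left out. Promoter windows are from RefSeq, GRCm38.p6. Some genes are not reported here.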

Additional observations from a re-analysis of the deposited data

Results flagged for a closer look

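Among 440 groups of 4 libraries, those of the genes named above whose highest library reached 1 CPM, 28 held a library whose gap to the nearest other, divided by the range of the group, was above Dixon's critical value at the 95% level; chance flags about 1 in 20 groups. In retinal microglia, library 1 stood apart for Cdh5 at 1.97 CPM (others 0.108 to 0.342), Chil3 at 1.26 CPM (others 0 to 0.0403) and Il1rn at 3.55 CPM (others 1.27 to 1.37). In retinal microglia, library 2 stood apart for Cdc20 at 10.5 CPM (others 3.1 to 3.99). In retinal microglia, library 3 stood apart for Anxa1 at 1.29 CPM (others 3.47 to 3.7), Ccl6 at 488 CPM (others 238 to 280.4), Cyba at 483 CPM (others 327 to 347), Itga6 at 262 CPM (others 547 to 589), Pdgfa at 46.6 CPM (others 25.3 to 26.5), Ptprc at 433 CPM (others 586 to 616) and Tgfb1 at 178 CPM (others 132 to 139.6). In retinal microglia, library 4 stood apart for Adora2b at 1.13 CPM (others 0 to 0.0539) and Fcgr2b at 199.7 CPM (others 274 to 286). In bone marrow monocytes, library 1 stood apart for C5ar1 at 37.7 CPM (others 23.7 to 24.7), Cd14 at 52.9 CPM (others 26.1 to 26.7), Cxcr4 at 38.6 CPM (others 14.9 to 18), Ifit1 at 99.6 CPM (others 134 to 141) and Runx3 at 22 CPM (others 25.5 to 25.6). In bone marrow monocytes, library 2 stood apart for H2-Oa at 1.3 CPM (others 0.633 to 0.731). In bone marrow monocytes, library 3 stood apart for Fpr2 at 13.3 CPM (others 17.1 to 17.8), Gpr34 at 3.29 CPM (others 2.29 to 2.34), Mrc1 at 18.2 CPM (others 22.1 to 22.8) and Vim at 1622 CPM (others 1716 to 1733). In bone marrow monocytes, library 4 stood apart for Adgre1 at 615 CPM (others 353 to 392), C3 at 1955 CPM (others 1679.8 to 1726), Clec7a at 677 CPM (others 515 to 538), F13a1 at 8160.0 CPM (others 5617 to 5932) and mt-Co1 at 10850.4 CPM (others 2881 to 3632). No explanation of these values was tested.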

How the results depend on the processing

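On the lane 2 libraries alone, which leave marrow library 1 as the only monocyte library, assumed to vary like the other groups, 5378 genes were called, 2621 higher and 2757 lower, against 9338, 5069 and 4269 over all libraries; fewer libraries entered. The genes at least 2-fold apart numbered 4893 there and 6710 over all libraries. Leaving out 1 library at a time gave 8706 to 9465 calls. Without the libraries whose titles lack the letter b, retinal libraries 1 and 3 among them, 8712 genes were called (4860 higher, 3852 lower). The other alternatives gave 6529 to 9618 calls, the lowest without retinal libraries 1 and 4 and marrow libraries 1 and 2 (chosen after seeing the data), 6642 with a tested fold of 1.5, 7506 with the lane as a term (3685 higher, 3821 lower) and 9618 with DESeq2. With total counts 5550 were higher and 3802 lower, 59.3% of calls higher against 54.3%. No gene named in the text changed sign with a call under any alternative run. The fit without the same 4 libraries also held fewer libraries. In it the calls of Csf2ra (-0.69), H2-Aa (-0.57), Itgav (0.74), Myb (-4.16), Cdh5 (2.20), Rn18s-rs5 (-1.89) and Tmsb4x (-0.10) ended. Zfp36 (0.84) and Olfm4, higher, were called there. Lars2 lost its call without any 1 of retinal libraries 2 and 4 and marrow libraries 1 and 2 (-1.36 to -1.28). Genes not called over all libraries were called without 1 library: H2-Eb1 without retinal library 3 or marrow library 3 or 4, Pcna without retinal library 2 or marrow library 3 or 4, mt-Co1 without retinal library 3 or marrow library 2, and Adgre1 without marrow library 4. With the lane as a term Tk1 (-1.44), Pcna (-0.65) and H2-Eb1 (-1.01) were called, and the calls of Cebpa and Ncf1 ended. On the lane 2 libraries alone the calls of Ahnak2 (2.08), Apoe (0.55), Cdh5 (6.40), Cebpa (0.70), Cyba (-0.65), Fcgr2b (0.69), Gnb1 (0.67), Ncf1 (0.22), Piezo1 (-1.24), Tfeb (-0.67) and Tyrobp (-0.63) ended, and Pcna (-0.92) was called. There 7 chemokines were higher, against 12 over all libraries, 4 MHC class II genes, against 7, and 9 ion channels, against 14. Of ion channels 0 were lower, against 4, and of border macrophage genes 5, against 8. With the 8 libraries only, 16 chemokines were tested, against 24, and 3 were lower, against 6. The causes were not tested. No paired analysis was possible because the numbers in the titles do not tie retinal to marrow libraries, and 3 of the 4 marrow libraries were on another lane. Monocyte depth, 8.91 to 20.71 mega-counts, limits genes near 0.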
